A study of Mus musculus with 2 samples.

Results

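The mRNA levels of 10 adherens junction genes, 7 cadherins and 3 catenins, were compared between WT and Gne KO C2C12 myoblasts. The genes were taken by symbol (Cdh1, Cdh2, Cdh4, Cdh5, Cdh11, Cdh13, Cdh15, Ctnnb1, Ctnna1 and Ctnnd1), and all 10 were found among the 21829 genes of the deposited tables. C2C12 is an immortalised mouse myoblast line. Both lines were kept in DMEM with fetal bovine serum and gentamicin, and the labels name no treatment. The KO cells carry a CRISPR–Cas9 indel in exon 2 of Gne, which encodes the bifunctional enzyme that starts sialic acid synthesis, and clones isolated from single cells were expanded, without a statement of which clone gave the library. There was 1 library of polyadenylated RNA from each line, so no difference has a replicate check, no p-value is given, and an effect of Gne and a difference between clones cannot be told apart. The libraries are called WT and KO-labelled here, since the RNA of Gne does not check the labels. Values were taken as FPKM, a level scaled for both transcript length and depth, so that genes can be compared with each other.

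Cadherins are calcium-dependent adhesion proteins that bind cadherins on the neighbouring cell. Their tails hold p120-catenin (Ctnnd1) near the membrane and β-catenin (Ctnnb1) further along, and β-catenin links them through αE-catenin (Ctnna1) to actin. β-Catenin that is not held at junctions can also act in the nucleus as the transcriptional arm of Wnt signaling. Myoblasts are known for N-cadherin (Cdh2) and for M-cadherin (Cdh15), a muscle cadherin whose gene is active in satellite cells and myoblasts. Cadherin-11 (Cdh11) is best known from osteoblasts, fibroblasts and other mesenchymal cells.

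Among the cadherin mRNAs, Cdh11 and Cdh15 differed strongly between the libraries, whereas each catenin mRNA was at a similar level in both. Cdh11 had 0.692 FPKM in WT and 30.7 FPKM in the KO-labelled library. Cdh15 had 16.6 FPKM in WT and 0.701 FPKM in the KO-labelled library. The muscle cadherin was thus abundant in WT and low in the other library, and Cdh11 showed the opposite. The other 2 cadherins above the filter and all 3 catenins differed by less than 2-fold, and 3 cadherins were at or near 0.

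Each log2 fold change is log2((KO + 1)/(WT + 1)), which makes changes of weakly expressed genes look smaller than they are, and a gene was called at a change of more than 2-fold if its mean over both libraries was at least 1 FPKM. Of the 10 members, 7 passed this filter. Cdh11 passed it through the KO-labelled library and Cdh15 through the WT library. Among the 7, 1 was called higher (Cdh11) and 1 lower (Cdh15), against 2.84% higher and 3.43% lower among the 10542 genes that passed. The median log2 fold change of the 7 was 0.11, and that of all 10542 genes was 0.0061, with an interquartile range from -0.21 to 0.23. These counts describe 10 genes that were listed with earlier results of these data known.

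**Figure D1:**
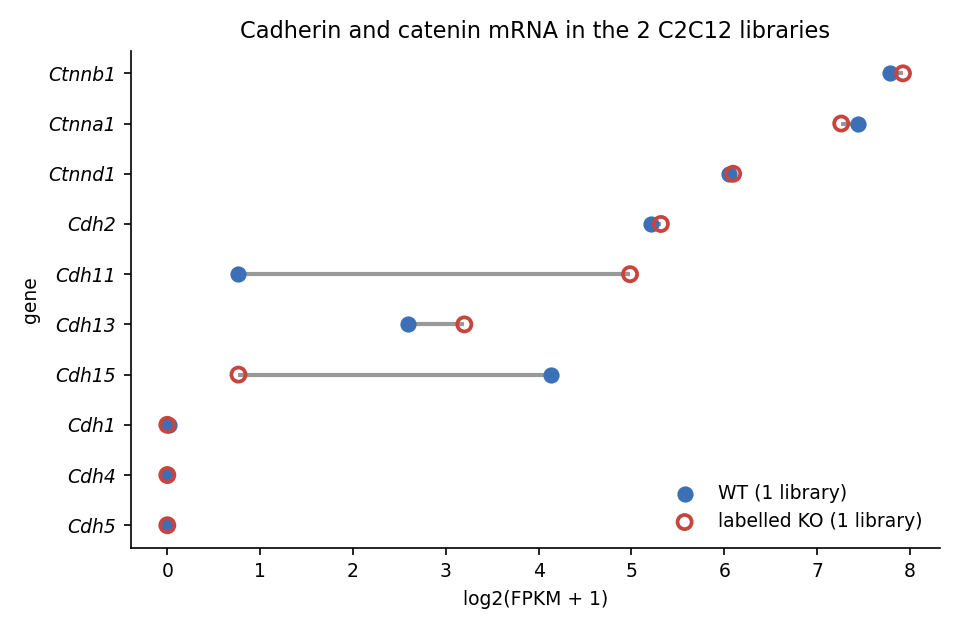
Level of each member on the log2(FPKM + 1) scale (x axis) for the 10 genes (y axis), with a filled point for the WT library, an open point for the KO-labelled library and a line for the distance between them. The long lines are those of Cdh11, from 0.692 to 30.7 FPKM, and Cdh15, from 16.6 to 0.701 FPKM.

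The sequence upstream of Cdh15 is shown because this gene was the only member called lower, and that of Jup, the gene of the β-catenin relative plakoglobin, because it had the lowest fold change among the catenin relatives. Each window runs from 250 bases before to 50 after the annotated start and was taken from RefSeq on GRCm38.p6, on the strand of the gene. Capitals mark matches to CANNTG, the general form of the E-box. Certain forms of it, not every match, are bound by basic helix-loop-helix factors such as MyoD and by Snail and Zeb repressors. The Cdh15 window lies at chr8:122848124-122848423 on the plus strand and the Jup window at chr11:100397741-100398040 on the minus strand.
Cdh15: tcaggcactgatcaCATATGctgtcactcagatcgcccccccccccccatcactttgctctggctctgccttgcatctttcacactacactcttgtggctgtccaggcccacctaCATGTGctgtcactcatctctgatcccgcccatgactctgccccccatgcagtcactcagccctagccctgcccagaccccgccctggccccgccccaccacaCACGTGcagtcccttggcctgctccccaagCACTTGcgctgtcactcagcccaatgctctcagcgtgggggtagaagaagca
Jup: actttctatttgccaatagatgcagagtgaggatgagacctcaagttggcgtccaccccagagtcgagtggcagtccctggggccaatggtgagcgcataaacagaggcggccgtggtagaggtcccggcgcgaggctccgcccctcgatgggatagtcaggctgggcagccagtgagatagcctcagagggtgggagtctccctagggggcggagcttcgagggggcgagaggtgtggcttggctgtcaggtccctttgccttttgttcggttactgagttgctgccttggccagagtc

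The Cdh15 window held 4 E-boxes, at positions 15, 116, 219 and 249 counted from 1 at its 5′ end. The first reads CATATG and the second CATGTG. The next reads CACGTG and the last CACTTG. The Jup window held 0. CANNTG reads the same way on both strands and occurs often, with at least 1 match in 72.3% and at least 4 in 6.49% of 32851 RefSeq windows of the same length. CAGCTG and CAGGTG, which are forms of CANNTG searched on both strands, had no match in either window and were present in 16.3% and 20.2% of all windows. The Cdh15 window also repeated GTCACTCA 4 times, at positions 23, 124, 167 and 259, without overlap with the E-boxes. This word, picked after the sequence had been seen and searched on both strands, occurred in 1.47% of all windows, and the Cdh15 window was the only 1 with 4 or more copies. Windows were found for 3 of the 10 members. The windows of Ctnnb1, 2 in number, held no CANNTG, and of the 2 windows of Ctnnd1, 1 held a single match. These matches are descriptions of the letters and not of binding.

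Cdh11 had the larger change of the 2. Its deposited value was 44.3 times higher in the KO-labelled library, and its log2 fold change was 4.23. It ranked 6 when the 10542 genes were ordered from the highest fold change. In the order of all 21829 genes by level, Cdh11 stood at place 10719 in the WT library and at place 3043 in the other. Its value in the KO-labelled library came near that of Cdh2, the most abundant of the 7 cadherin members in both libraries. Over the 2 libraries, the genes whose pair of values lay nearest to that of Cdh11 were Selenop, Aspn and Postn, at distances of 0.077, 0.13 and 0.27 on the log2(value + 1) scale. Selenop had 0.781 and 30.2 FPKM, Aspn 0.609 and 28.5 FPKM, and Postn 0.44 and 33.9 FPKM, WT first.

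Cdh15 changed in the other direction. The WT value was 23.7 times that of the KO-labelled library, and the log2 fold change was -3.37, which placed it 18 from the lowest fold change. By level it stood at place 5011 of all genes in the WT library and at place 10707 in the KO-labelled library. The remaining 0.701 FPKM was close to what Cdh11 had in the WT library, whereas the high value of Cdh11 exceeded that of Cdh15. Cdh15 was 24.0 times as high as Cdh11 in the WT library. In the KO-labelled library, Cdh11 was 43.7 times as high as Cdh15.

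**Figure D2:**
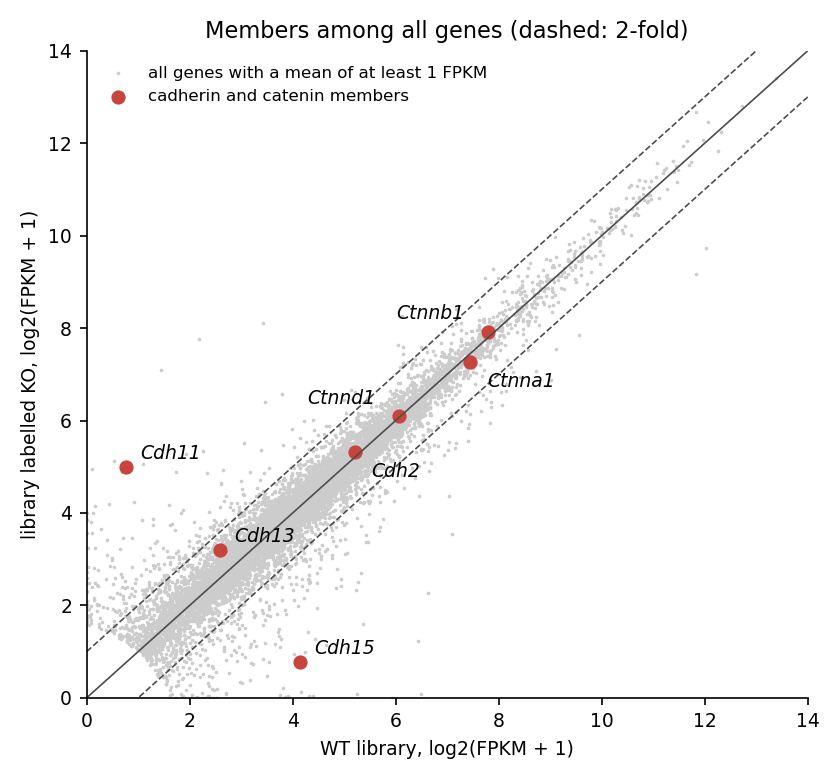
Values of the WT library (x axis) against the KO-labelled library (y axis), both as log2(FPKM + 1), for 10542 genes in gray and the 7 members that passed the filter in red. The solid line marks equal values and the dashed lines a 2-fold change, and Cdh11 and Cdh15 lie far outside them while the other 5 members lie inside.

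Cdh2, which encodes N-cadherin, had 36.0 FPKM in WT and 38.9 FPKM in the KO-labelled library, a log2 fold change of 0.11. Cdh13 encodes T-cadherin, which is anchored in the membrane by a lipid and lacks the tail that binds catenins. It had 5.01 and 8.19 FPKM, WT first, a log2 fold change of 0.61 that stayed below 2-fold. Both of these cadherins were therefore present in both libraries, and Cdh13 was somewhat higher in the KO-labelled library.

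The last 3 cadherins were at or near 0. Cdh1 encodes E-cadherin, the cadherin of epithelia, and had 0.014 FPKM in WT and was listed at 0 in the KO-labelled library. Cdh5, the endothelial VE-cadherin, and Cdh4, known as R-cadherin, were listed at 0 in both. Markers of the cell types known for these cadherins were low as well. Of 12 epithelial markers, 11 were under the filter, none of them above 0.264 FPKM in either library, and Epcam, Krt18, Cldn3, Cldn4, Cldn7 and Esrp1 were listed at 0 in both. The exception was Krt14, a keratin of basal epithelium, with 18.8 FPKM in WT and 6.20 FPKM in the other. Of 10 endothelial markers, 9 were under the filter, none above 0.052 FPKM, and Kdr, Cldn5, Emcn and Erg were listed at 0 in both. Egfl7 was the exception with 3.77 and 4.41 FPKM, WT first.

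Summed over the 7 cadherins, the level was 58.4 FPKM in WT and 78.4 FPKM in the KO-labelled library, a ratio of 1.34. Cdh2 made up 61.7% of the WT sum and 49.6% of the other. The share of Cdh15 was 28.5% in the WT library and 0.894% in the KO-labelled library. Cdh11 accounted for 1.19% of the WT sum and for 39.1% of the other. Cdh13 took 8.59% and 10.4%. Without Cdh11 and Cdh15, the sums of the remaining 5 genes were 41.1 and 47.1 FPKM, so most of the difference between the totals lay in this pair, which summed to 17.3 FPKM in WT and 31.4 FPKM in the KO-labelled library. The order of the cadherins that passed the filter was Cdh2, Cdh15, Cdh13 and Cdh11 in the WT library and Cdh2, Cdh11, Cdh13 and Cdh15 in the KO-labelled library. With 1 library per line, no spread is known against which neighbouring places in this order could be compared.

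**Figure D3:**
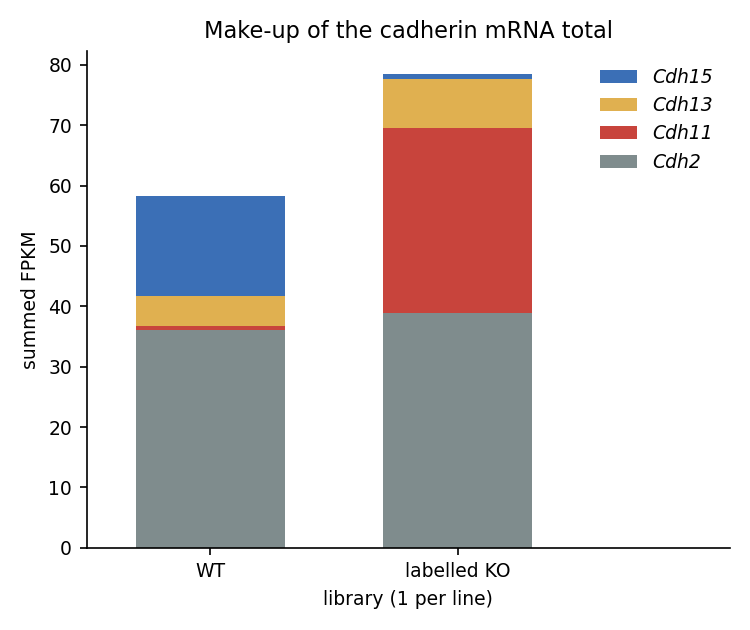
Summed FPKM of the cadherin members (y axis, from 0) in each library (x axis), divided by gene. Cdh4 and Cdh5 are listed at 0 and Cdh1 is at most 0.014 FPKM, so they are not visible, and the total goes from 58.4 in WT to 78.4 in the KO-labelled library with Cdh11 in the place of Cdh15.

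Ctnnb1 and Ctnna1 were far more abundant than the cadherins, Ctnnd1 less so, and all 3 catenins changed little. Ctnnb1 had 219 FPKM in WT and 242 FPKM in the KO-labelled library, a log2 fold change of 0.14. Ctnna1 had 173 and 152 FPKM, WT first, a log2 fold change of -0.19. Ctnnd1 had 65.5 and 67.4 FPKM, a log2 fold change of 0.040. The order Ctnnb1, Ctnna1, Ctnnd1 was the same in both libraries, and all 3 lay above every cadherin. Their sum was 458 FPKM in WT and 462 FPKM in the other. Relative to the cadherin sum, Ctnnb1 mRNA was 3.76 times as high in the WT library and 3.09 times as high in the KO-labelled library. The same ratio went from 2.97 to 1.94 for Ctnna1 and from 1.12 to 0.859 for Ctnnd1. The cadherin sum covers only the members and includes Cdh13, whose product lacks the tail that binds catenins. These are ratios of mRNA levels, and protein was not measured here.

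Relatives of the 3 catenins were less even. Jup encodes plakoglobin, which can take the place of β-catenin on a cadherin tail and also sits in desmosomes. It had 20.7 FPKM in WT and 1.43 FPKM in the KO-labelled library, a log2 fold change of -3.16. Its level was 9.46% of that of Ctnnb1 in the WT library and 0.589% in the other. Arvcf, a relative of p120-catenin, had 4.12 and 1.49 FPKM, WT first, a log2 fold change of -1.04 that only just passed 2-fold. Ctnnal1, a relative of the α-catenins, was higher in the KO-labelled library, with 5.05 and 16.6 FPKM and a log2 fold change of 1.54. Ctnnbip1, whose product keeps β-catenin from binding TCF factors, was the most abundant gene of this list and had 17.8 and 17.6 FPKM. The list of 9 genes includes Ctnnbip1 and is wider than the catenin family. Of the 9, 6 passed the filter, 1 was called higher and 2 lower, and the median log2 fold change of the 6 was -0.13. Among all genes past the filter, 2.84% were called higher and 3.43% lower.

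Among desmosomal genes, 2 of 13 passed the filter. Pkp1, which encodes the plaque protein plakophilin-1, had 9.96 FPKM in WT and 1.29 FPKM in the KO-labelled library, a log2 fold change of -2.26. Its relative Pkp2 had 12.9 and 12.1 FPKM. The desmosomal cadherins themselves were under the filter, so Jup and Pkp1 were not accompanied by desmogleins or desmocollins at a comparable level in either library.

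Of 31 further cadherins, 26 were under the filter and 10 of these were listed at 0 in both libraries. Cdhr1, a cadherin best known from photoreceptors, was the only one called, with 2.58 FPKM in WT and 0.023 FPKM in the other, a log2 fold change of -1.81. Clstn1, which encodes calsyntenin-1, was the most abundant of them, with 22.9 and 42.3 FPKM, WT first, and a log2 fold change of 0.86. Cdh18 fell under the filter, with 0.011 FPKM in WT and 1.65 FPKM in the KO-labelled library. It is named after its values were seen.

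All 4 non-clustered protocadherins that passed the filter, of 12 listed, were higher in the KO-labelled library, and 2 were called. Over all genes past the filter, 2.84% were called higher. Pcdh7 had 9.49 FPKM in WT and 39.8 FPKM in the other, a log2 fold change of 1.96. Pcdh1 had 0.84 and 9.97 FPKM, a log2 fold change of 2.58, and passed the filter through the KO-labelled library. The median of the 4 was 1.35. Protocadherins share the extracellular repeats of cadherins but not the tail that binds catenins.

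The mRNAs of partners on the cytoplasmic side of the junction were mostly within 2-fold between the libraries, as were those of genes in general. Over all 10542 genes past the filter, 6.27% were called in either direction. Of 24 partners, 22 passed the filter, 20 of them lay within 2-fold, and their median log2 fold change was 0.096. Actn4, an actin crosslinker, was the most abundant with 152 and 127 FPKM, WT first. Ptprf, a receptor tyrosine phosphatase that associates with cadherin complexes, was an exception with 23.9 FPKM in WT and 1.20 FPKM in the KO-labelled library, a log2 fold change of -3.50. Ank3, the gene of ankyrin-G, was the other, with 2.35 and 7.75 FPKM and a log2 fold change of 1.39. The genes around Ank3 had a median of 0.49, and after its subtraction Ank3 stood at 0.89. With 6.27% of all genes called, a short list often holds none. None of the 4 nectin genes that passed was called, and Nectin3, the most abundant, had 18.2 and 16.4 FPKM. None of the 8 genes for cadherin cleavage and maturation that passed was called either. The highest of these was Mmp14, a membrane-bound metalloproteinase, with 228 and 226 FPKM.

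**Figure D4:**
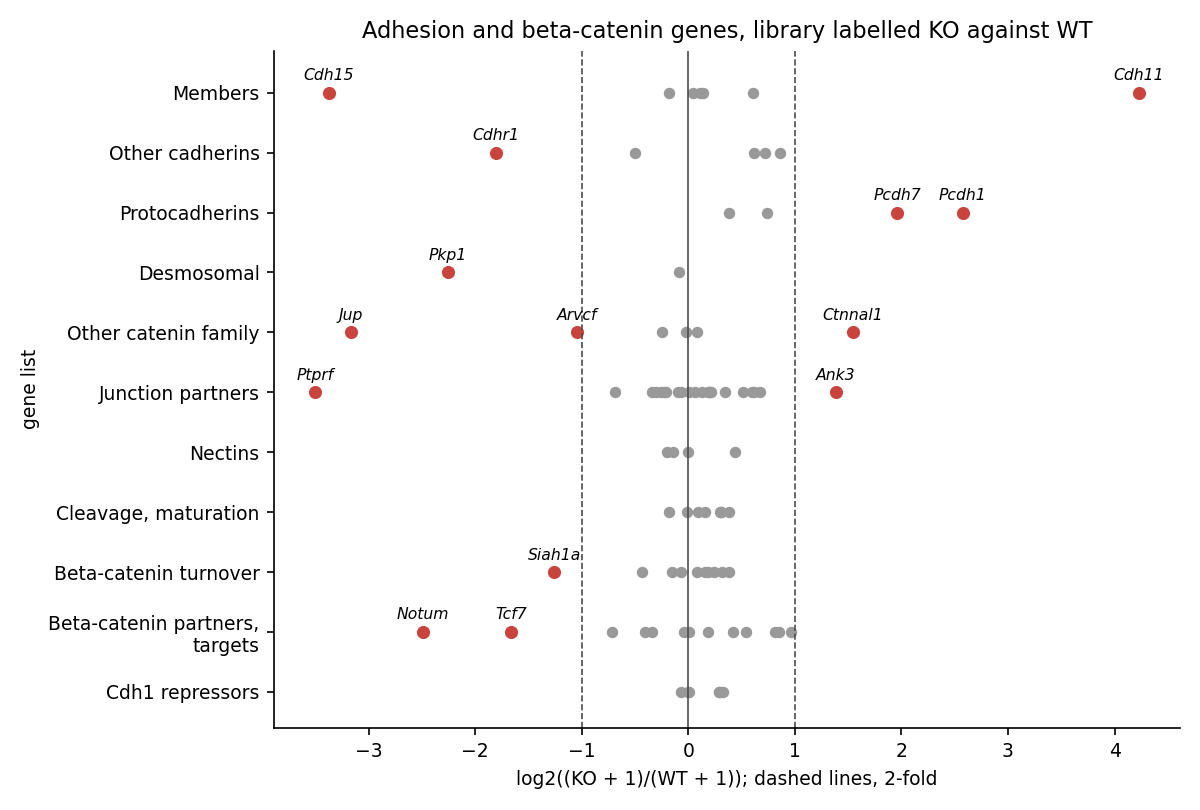
Log2 fold change of the KO-labelled library against WT (x axis) for each gene that passed the filter, in rows by gene list (y axis), with genes called at 2-fold in red and named. Cdh11 and Cdh15 lie at the ends of the top row, and Jup, Ptprf and Pkp1 lie on the side of Cdh15.

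Genes that control or report β-catenin were compared because Ctnnb1 mRNA does not tell how much of the protein is free of junctions. Over all genes past the filter, 6.27% were called in either direction. The 10 genes of the β-catenin destruction complex and turnover all passed the filter, and 9 lay within 2-fold. Csnk1a1, the gene of casein kinase 1α, was the most abundant with 116 and 130 FPKM, WT first. Siah1a, a ubiquitin ligase that can target β-catenin, had 43.7 FPKM in WT and 17.7 FPKM in the KO-labelled library, a log2 fold change of -1.26. It lies on chromosome 8 among genes that were lower together, whose median was -1.46, and after its subtraction Siah1a stood at 0.20. Of 19 transcriptional partners and common targets of β-catenin, 13 passed and 2 were called, both lower. Tcf7, which encodes the factor TCF1, had 15.0 and 4.05 FPKM and a log2 fold change of -1.66. Notum, a secreted Wnt inhibitor, had 12.6 and 1.42 FPKM and a log2 fold change of -2.49. Ccnd1, the gene of cyclin D1, had 163 and 164 FPKM. Axin2, a widely used target that is named after its values were seen, was under the filter with 0.605 and 0.392 FPKM. The median over the 13 genes was 0.0091, and 7 of them were higher in the KO-labelled library. Lef1 and Nkd2, also named after their values were seen, passed the filter but were not called. Lef1 had 0.77 and 2.20 FPKM, WT first, and Nkd2 had 0.398 and 1.73 FPKM, with log2 fold changes of 0.85 and 0.97. Their deposited values were 2.86 and 4.34 times higher in the KO-labelled library.

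Transcription factors that repress Cdh1 differed little between the libraries. Of 8 listed, 7 passed the filter and none was called, where 6.27% of all genes were called in either direction. The log2 fold changes of the 7 ran from -0.066 to 0.33. Twist2 was the most abundant with 61.9 and 62.3 FPKM, WT first. Twist1 was listed at 0 in both.

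Over the 10 related adhesion and β-catenin lists, 81 of 143 genes passed the filter, 4 were called higher and 8 lower. This is 14.8% of the genes that passed, against 6.27% of all genes called in either direction. The lists were written with earlier results of these data known, and nothing is read from this difference.

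Other markers of the cell types that Cdh15 and Cdh11 are known from were called in both directions. Of 14 myoblast markers, 8 passed the filter, 3 were called lower and 1 higher. The median log2 fold change of the 8 was -0.076, and 4 of them were higher in the KO-labelled library. Among all 10542 genes past the filter, 3.43% were called lower and 2.84% higher. The marker lists were written with earlier results of these data known, and nothing is read from their counts. The level summed over all 14 myoblast markers was 242 FPKM in WT and 92.4 FPKM in the KO-labelled library. This fall lay in the 3 genes called lower, Des, Chrna1 and Myod1. Des, the muscle intermediate filament gene, had 97.6 and 3.84 FPKM, WT first. Chrna1, a subunit gene of the muscle acetylcholine receptor, had 15.3 and 0.917 FPKM. Myod1, the gene of the myogenic factor MyoD, had 59.97 FPKM in WT and was listed at 0 in the other, and Myf5, a related factor, had 9.14 and 20.3 FPKM. Pax7 and Msc were listed at 0 in both, and a listed 0 does not show that a transcript was absent. Of 11 fibroblast and mesenchymal markers, 7 passed, 3 were called higher and 1 lower. Their sum was 648 and 1179 FPKM, WT first, of which Col1a2, a type I collagen gene, held 237 and 621 FPKM. Col1a1 had 9.66 and 273 FPKM. Cd34, a surface marker of several progenitor cells, went the other way with 136 and 10.6 FPKM, and Thy1 and Lum were listed at 0 in both. In bulk RNA, fewer cells of a type and less RNA per cell cannot be told apart, and the part of cell state in the cadherin difference was not tested.

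The 5 cadherin members Cdh11, Cdh5, Cdh1, Cdh13 and Cdh15 lie on chromosome 8, in this order. In GENCODE vM39 on GRCm39, Cdh11 runs from 103358726 to 103512687 on the minus strand and Cdh15 from 123574705 to 123596048 on the plus strand. Genes in this part of the chromosome were slightly higher in the KO-labelled library. The 61 genes past the filter within 5 Mb of the Cdh11 start site had a median log2 fold change of 0.22, and 48 of them were higher. For Cdh15 there were 77 such genes, with a median of 0.33, and 65 were higher. The log2 fold change of Cdh11 minus the median of its neighbours was 4.00, and the same difference for Cdh15 was -3.71. Cdh13 had 54 neighbours with a median of 0.33 and stood at 0.28 after subtraction of it.

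The nearest genes past the filter did not share these changes. Acsf3, whose start lies 72.5 kb from that of Cdh15, had 3.36 and 5.76 FPKM, WT first, and Ankrd11, 194 kb away on the other side, had 17.3 and 19.0 FPKM. The nearest gene to Cdh11 that passed the filter was Tk2, at 1.46 Mb, with 6.29 and 5.29 FPKM. On the side of Cdh11 that lies downstream of it, no gene within 5 Mb passed the filter. One gene near Cdh15 did resemble it. Tubb3, a tubulin gene 0.56 Mb away that is named after its values were seen, had 18.0 FPKM in WT and 0.997 FPKM in the KO-labelled library, a log2 fold change of -3.25.

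**Figure D5:**
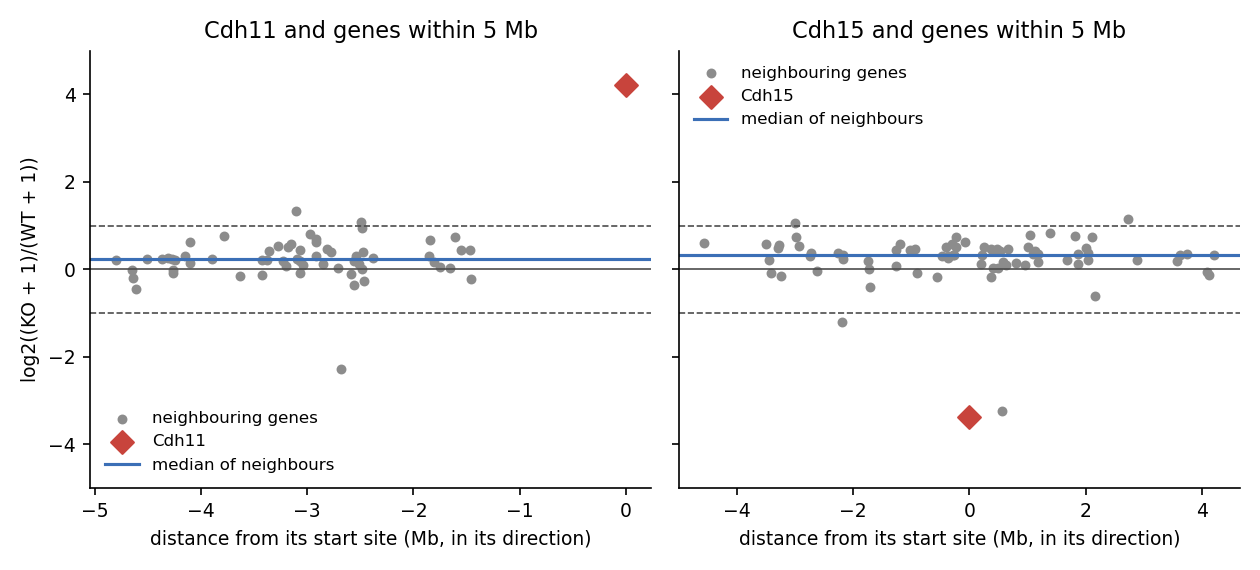
Log2 fold change (y axis) of genes past the filter against the distance of their start site from that of Cdh11 (left) or Cdh15 (right) in Mb (x axis), with the member as a red diamond, the median of its neighbours as a blue line and 2-fold as dashed lines. The neighbours gather near medians of 0.22 and 0.33, far from Cdh11 at 4.23 and Cdh15 at -3.37, and 1 neighbour of Cdh15, Tubb3, lies near it.

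The genes of N-cadherin and αE-catenin lie on chromosome 18, that of β-catenin on chromosome 9, and those of p120-catenin and Cdh4 on chromosome 2. The neighbours of Cdh2, Ctnna1, Ctnnb1 and Ctnnd1 had medians of -0.041, -0.045, -0.0092 and -0.019. These genes and their surroundings were thus both close to equal between the libraries.

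The libraries were close in the sum of their values and in the number of genes seen. Values summed to 568410 in WT and 574144 in the KO-labelled library, and 13709 and 13589 genes were above 0. The values are already scaled for depth, so their sums do not measure the size of the libraries. The number of reads is not given in the sources used here, and the lowest values gave a rough estimate of it. Among genes with 1 annotated transcript, the lowest value times transcript length clustered at 0.038 FPKM × kb in WT and 0.043 in the other library, which corresponds to about 26700000 and 23500000 fragments. On this scale the low values of the changed members rested on about 104 fragments for Cdh11 in WT and 85.0 for Cdh15 in the KO-labelled library, and that of Cdh1 in WT on about 1.65. These figures depend on the transcript length assumed and are given only as an order of size. Gne itself had 6.67 FPKM in WT and 7.34 FPKM in the KO-labelled library, so its RNA does not tell which library carries the edit, and the labels were followed.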

How the data were processed

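The 10 members and the gene lists were chosen with earlier results of these data known. The FPKM values were deposited by the authors as 1 value per gene symbol and library. The unit is not named in the files and was inferred from the totals, which differ, and from the smallest values, which scale with transcript length, and a TPM table restricted to these genes would look the same. The submitters' processing notes name Trim Galore 0.6.6, STAR 2.7.9a and RSEM 1.3.3 and the build GRCm38, whereas the methods name GRCm39 and a different STAR version. The labels name an Illumina stranded kit and the methods an MGI directional kit.

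The 24 repeated symbols among 21853 rows were reduced to the row of higher mean. Fold changes were log2((KO + 1)/(WT + 1)). The filter of mean FPKM at or above 1 kept 10542 genes, and a change of more than 2-fold was called. With 1 library per line no test was run. The code was checked on made-up values. All members were named, together with the called genes and the most abundant gene of each list, and for the member with the largest change the 3 genes nearest in both libraries. Genes listed at 0 in both libraries were also named from the marker lists and the list of Cdh1 repressors. So were the genes past the filter nearest to Cdh11 and Cdh15. Other names are marked in the text as named after their values were seen. Positions came from GENCODE vM39 on GRCm39 by symbol, for 10160 of the 10542 genes, and neighbours are genes past the filter whose start lies within 5 Mb. RefSeq promoter windows are on GRCm38.p6. The fragment estimate used genes with 1 transcript of 500 to 3000 bases and values of at least 0.01, settings chosen after the values were seen. Protein sequences were not used here. Alternatives were pseudocounts of 0.1 and 5, median-of-ratios scaling, omission of the filter, a filter of 5 FPKM, subtraction of the neighbours' median and summing of repeated symbols. Python 3.11.15, numpy 2.4.6, pandas 2.3.3 and matplotlib 3.10.9 were used.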

Additional observations from a re-analysis of the deposited data

How the results depend on the processing

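With a single library in each group, no library could be left out. No paired analysis was possible because each group holds 1 library and nothing was tested. Under each alternative run, 1 member was called higher and 1 lower, and the ratio of the cadherin sums was 1.34 both as deposited and with the values of the library labelled KO divided by the median ratio of 1.005. The size of both changes depends on the pseudocount, by its construction. For Cdh11 the log2 fold change of 4.23 became 5.28 at a pseudocount of 0.1 and 2.65 at 5, and Cdh15 had -4.38 and -1.92, against -3.37. The other 49 of 53 recomputed counts and fold changes moved by at most 1.5-fold, and 0 reversed. The number of called genes in the related lists was 12, and ran from 9 with a pseudocount of 5 to 15 with a pseudocount of 0.1.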
